A study of Mus musculus with 34 samples.

Results

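Binding of ATF3, a stress-inducible bZIP protein of the AP-1 family, was compared between vehicle-treated (Veh) macrophages of PPARγ knockout mice and of wild type mice. The members were all peaks of both ATF3 Veh peak lists, 28318 in the knockout list and 23160 in the wild-type list, of 596383 peaks in the 30 lists of the series. Peaks of these lists that overlapped by 1 bp or more were counted as 1 locus, which gave 33364 loci. Of these, 10215 held only a knockout peak (knockout-only), 18103 held peaks of both lists (shared) and 5046 held only a wild-type peak (wild-type-only). The cells were thioglycollate-elicited peritoneal macrophages (TGEMs), a primary population that is recruited into the peritoneum by a thioglycollate injection, cultured and given PBS as vehicle. The knockout sample was titled C57Bl6-PPARgKO, genotype PPARgKO, and the wild-type sample C57Bl6, genotype C57Bl/6EiJ, both from male mice. Per the study's methods, wild-type TGEMs came from mice 8 weeks old. The Cre driver, the deleted exons and the age of the knockout mice are not given in the sources used here, and a PPARγ peak list of the knockout was not analysed here, so the loss of PPARγ was not checked in these data. PPARγ, PU.1, CEBPα, Jun and JunD lists of wild-type Veh TGEMs were set beside the ATF3 loci. So were Jun and JunD lists of knockout Veh TGEMs and the ATF3 list of BALB/cJ Veh TGEMs. A further ATF3 list came from wild-type TGEMs treated for 1 h with KLA, a specific agonist of the receptor TLR4.

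AP-1 proteins bind DNA as dimers of bZIP monomers, at the TRE and the closely related CRE sequence, and select their sites in a given cell type together with other factors. In macrophages those partners include PU.1, the ETS factor that establishes much of the macrophage enhancer repertoire, CEBPα, and PPARγ, a lipid-activated nuclear receptor that binds direct repeats of a hexamer as a heterodimer with RXR. ATF3 can pair with Jun family members and, through a composite site, with CEBP proteins.

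Each list is 1 set of peaks that the authors called over replicates, so a comparison of both lists has no replicate spread. The intervals given are 95% intervals that cover counting error over loci only, and loci are not biological replicates. A peak's count is given as deposited. The knockout list had more peaks with lower counts, median 29 (range 11 to 282), than the wild-type list, median 56 (range 25 to 409), and at shared loci the median ratio of knockout to wild-type count was 0.631. For comparisons between the lists, a locus was given its percentile rank by count within each list, and counts of both lists are set side by side only as values. All 6 macrophage marker genes examined (Csf1r, Cd68, Adgre1, Itgam, Lyz2 and Mertk) had an ATF3 peak within 10 kb in both lists, as did 1 of 3 T cell markers and 1 of 3 neutrophil markers. A peak near a gene does not measure its expression, so these markers describe the lists and not the purity of the cells.

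The loci on which the results turn are printed as central 200 bp windows, on the plus strand of mm10, read from the GRCm38.p6 assembly. They are the strongest locus of each class, the shared loci with the largest rise and fall in rank, and the shared locus with the strongest PPARγ peak near a PPARγ target gene. Capitals mark every match, on either strand, to TRE (TGACTCA), CRE (TGACGTCA), the CEBP and ATF composite (TGATGCAA), CEBP (TTGCNNAA), PU.1 (ACTTCCT), the PPAR hexamer (AGGTCA), Runx (TGTGGTT), the Mitf and Tfec E-box (TCACGTG), Sp1 (CCCCGCCC) and the full PPAR motif, which is a pair of hexamers 1 base apart with at most 2 mismatches.
Wild-type-only, upstream of Tbc1d31, chr15:57906758-57906957: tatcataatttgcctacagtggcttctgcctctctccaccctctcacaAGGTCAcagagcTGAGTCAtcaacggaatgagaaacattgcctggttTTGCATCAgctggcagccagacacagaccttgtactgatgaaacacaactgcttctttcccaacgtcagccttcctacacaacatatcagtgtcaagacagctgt
Knockout-only, in Nav1, chr1:135594039-135594238: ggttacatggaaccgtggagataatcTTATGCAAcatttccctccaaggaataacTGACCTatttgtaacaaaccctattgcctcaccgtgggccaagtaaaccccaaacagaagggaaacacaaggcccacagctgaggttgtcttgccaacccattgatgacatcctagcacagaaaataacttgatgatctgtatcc
Shared, nearest start site Glrp1, chr1:88587518-88587717: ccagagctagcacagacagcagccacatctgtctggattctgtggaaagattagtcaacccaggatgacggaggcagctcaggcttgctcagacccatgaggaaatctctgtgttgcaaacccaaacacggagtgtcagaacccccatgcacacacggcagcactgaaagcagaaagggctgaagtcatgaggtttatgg
Shared with the largest rise in rank, in Crybg3, chr16:59529666-59529865: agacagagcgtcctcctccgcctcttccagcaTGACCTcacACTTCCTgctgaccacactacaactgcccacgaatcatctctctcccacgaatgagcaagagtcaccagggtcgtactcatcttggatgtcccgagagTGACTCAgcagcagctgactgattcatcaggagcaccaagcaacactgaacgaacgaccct
Shared with the largest fall in rank, nearest start site Trib1, chr15:59774124-59774323: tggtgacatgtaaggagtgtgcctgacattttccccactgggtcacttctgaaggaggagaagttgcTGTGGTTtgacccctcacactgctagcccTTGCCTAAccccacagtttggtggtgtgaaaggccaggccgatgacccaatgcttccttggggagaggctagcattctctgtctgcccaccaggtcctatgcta
Shared with the strongest PPARγ peak, at Cpt1a, chr19:3325413-3325612: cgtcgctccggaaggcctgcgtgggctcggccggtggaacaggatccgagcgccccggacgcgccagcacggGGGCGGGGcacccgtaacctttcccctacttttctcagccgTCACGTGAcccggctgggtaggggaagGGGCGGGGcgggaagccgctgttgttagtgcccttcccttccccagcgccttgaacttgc
The wild-type-only window near Tbc1d31 held a PPAR hexamer, a TRE on the minus strand and a composite site. The Nav1 window held a CEBP word and a PPAR hexamer and no TRE, the Glrp1 window held no word of the list, and the Cpt1a window held Sp1 words and an E-box. None of these 6 windows held the full PPAR motif. A match is a description of the letters and not a binding site.

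Most wild-type ATF3 loci were present in the knockout list. Of 23149 loci with a wild-type peak, 78.2% were shared and 21.8% (21.3 to 22.3%) were missing in the knockout list. Of 28318 loci with a knockout peak, 63.9% were shared and 36.1% (35.5 to 36.6%) were missing in the wild-type list. As shares of all loci, 30.6% were knockout-only and 15.1% were wild-type-only. The knockout list was also the longer list. It was cut to its 23160 strongest peaks, which kept peaks with a count of 18 or more. Then 5750 loci were knockout-only, 17410 were shared and 5740 were wild-type-only. Lists of equal length give single-list classes of nearly equal size by construction, so these counts cannot test the excess of knockout-only loci. Of the 5158 peaks left out, 4465 had been knockout-only.

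Loci in one list only were mostly weak in that list. The median count was 38 at wild-type-only loci and 64 at shared loci in the wild-type list, and 19 at knockout-only loci and 41 at shared loci in the knockout list. In percentile ranks, wild-type-only loci had a median of 22.4 against 58.5 for shared loci in the same list, and knockout-only loci a median of 22.3 against 67.5. In the lowest bin of wild-type counts, 25 to 31, 55.6% of loci were missing in the knockout list, and in the highest bin, 136 to 409, 1.22% were missing, which is 28 of 2299 loci. In the knockout list the same share went from 90.9% in the lowest bin, 11 to 15, to 0.535% in the highest, 80 to 282. Among the 1000 strongest peaks of the wild-type list, 995 lay at loci of the knockout list, and 799 lay among the 1000 strongest knockout peaks. A peak of the other list had its centre within 500 bp, without overlap, at 11.0% of wild-type-only and 1.29% of knockout-only loci. The reads under a locus in the list that lacks it were not analysed here, so an absent peak is not a measured absence of ATF3.

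**Figure D1:**
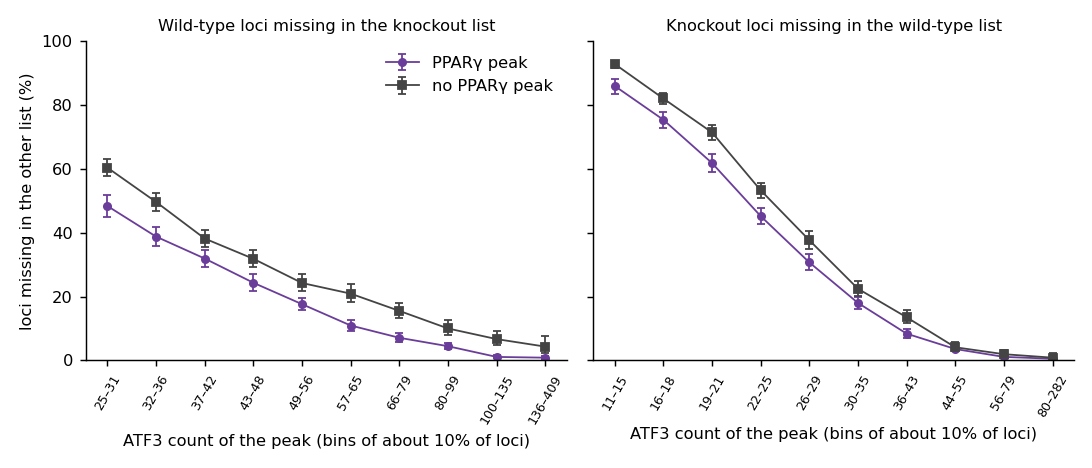
Share of ATF3 loci missing in the other list (y axis, percent) by the count of the peak (x axis, bins of about 10% of the loci, lowest and highest count given), for wild-type loci (left) and knockout loci (right), split by the presence of a wild-type PPARγ peak; bars are 95% Wilson intervals. Both shares fell with count, and loci with a PPARγ peak lay below loci without one in every bin of wild-type loci, from 48.4% against 60.4% in the lowest bin to 0.832% against 4.30% in the highest.

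Wild-type PPARγ peaks were less frequent at ATF3 loci that were missing in the knockout than at loci that were kept. A PPARγ peak lay at 2078 of 5046 wild-type-only loci, 41.2% (39.8 to 42.5%), and at 11905 of 18103 shared loci, 65.8% (65.1 to 66.5%), a difference of -24.6 percentage points (-26.1 to -23.1). Since wild-type-only loci were weaker, loci were also compared within bins of 10% by wild-type count. There the odds of a PPARγ peak at wild-type-only loci were 0.605 times those at shared loci (95% interval 0.565 to 0.649), against a crude odds ratio of 0.365. A value below 1 was not particular to PPARγ. In the same bins it was 0.704 for Jun and 0.686 for JunD of wild type, and 0.430 and 0.398 for those of the knockout. For the ATF3 lists it was 0.609 with KLA and 0.692 in BALB/cJ. Knockout-only loci had a PPARγ peak of wild-type cells at 38.3% (37.3 to 39.2%), with an odds ratio of 0.681 (0.637 to 0.728) against shared loci within bins of knockout count. At equal list lengths the shares were 41.7% at wild-type-only, 66.6% at shared and 43.6% at knockout-only loci, and the odds ratio within bins was 0.611 (0.570 to 0.655) for wild-type-only loci, with an interval of 0.650 to 0.753 for knockout-only loci.

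PU.1 peaks, too, were most frequent at shared loci. They lay at 48.5% (47.1 to 49.9%) of wild-type-only, 59.0% (58.2 to 59.7%) of shared and 41.2% (40.2 to 42.1%) of knockout-only loci. Within count bins the odds ratio against shared loci was 0.886 (0.827 to 0.949) for wild-type-only and 0.830 (0.777 to 0.887) for knockout-only loci. Of the 3 partners, CEBPα differed most between the single-list classes, by -11.6 percentage points (knockout-only minus wild-type-only, -12.9 to -10.3), beside -7.35 points for PU.1 and -2.90 points for PPARγ. CEBPα peaks lay at 23.6% (22.5 to 24.8%) of wild-type-only, 41.3% (40.6 to 42.0%) of shared and 12.1% (11.5 to 12.7%) of knockout-only loci. Within count bins the odds of a CEBPα peak at knockout-only loci were 0.539 times those at shared loci (0.495 to 0.587), whereas the interval for wild-type-only loci, 0.866 to 1.02 around 0.939, held 1. At equal list lengths, CEBPα peaks lay at 23.0% of wild-type-only and 15.4% of knockout-only loci. PU.1 peaks then lay at 47.7% and 46.2% of these classes. PPARγ peaks lay at 41.7% and 43.6%, the reverse of their order in the full lists, so these differences depended on list length.

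Combinations of the partners differed by class as well. All 3 partners were present at 21.1% of shared, 6.86% of wild-type-only and 3.33% of knockout-only loci. None of the 3 was present at 13.3% of shared, 27.8% of wild-type-only and 37.8% of knockout-only loci. PPARγ without PU.1 or CEBPα varied less, at 12.8% of shared, 12.5% of wild-type-only and 14.8% of knockout-only loci. PU.1 alone was found at 9.88% of shared, 18.4% of wild-type-only and 17.4% of knockout-only loci. PPARγ peaks that coincided with PU.1 or CEBPα varied most, at 53.0% of shared, 28.7% of wild-type-only and 23.5% of knockout-only loci.

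**Figure D2:**
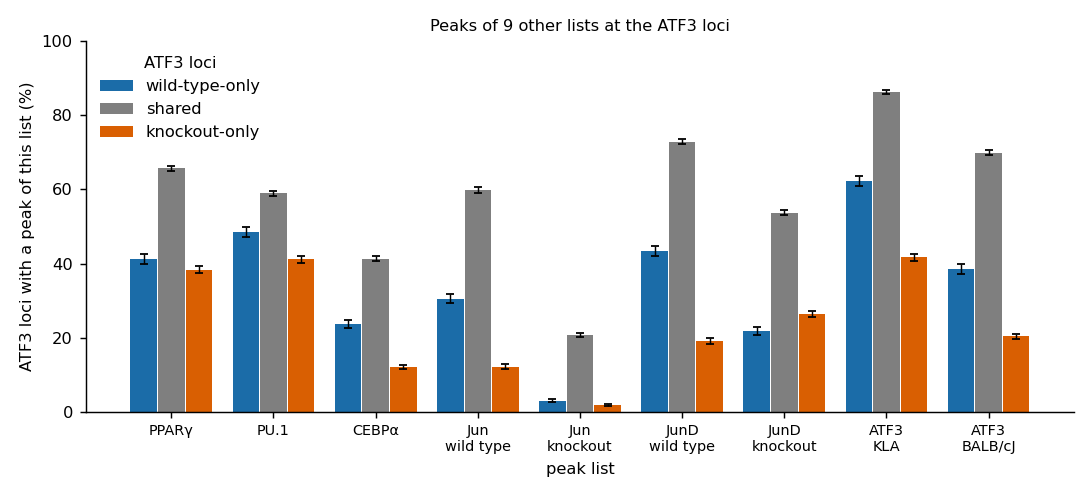
Share of wild-type-only, shared and knockout-only ATF3 loci (bars, percent, with 95% Wilson intervals) that held a peak of each of 9 other lists (x axis); PPARγ, PU.1, CEBPα and ATF3 KLA lists are from C57BL/6 wild type. Shared loci had the highest share for each list, and JunD of the knockout was the list whose peaks were more frequent at knockout-only (26.4%) than at wild-type-only loci (21.7%).

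Among ATF3 loci that did hold a PPARγ peak, those with the strongest PPARγ peaks were missing in the knockout list more often than others of the same ATF3 count. The comparisons of this paragraph were chosen after other values had been seen. Of 13980 such wild-type loci, the 25% with the highest PPARγ count, 80 or more, had a median ATF3 count of 93 against 61 for the rest, and 13.3% (12.2 to 14.5%) were missing in the knockout list against 15.4% (14.7 to 16.1%). Within bins of ATF3 count the order turned, and the odds of a missing locus were 1.84 times as high at the strongest PPARγ peaks as at the rest (1.62 to 2.10). A full PPAR motif went with the same direction: 143 of 658 loci with it were missing, 21.7% (18.8 to 25.0%), against 14.5% (13.9 to 15.1%) of 13322 loci without it. The median ATF3 counts of these sets, 64 and 66, were nearly equal, and the odds ratio within bins was 1.74 (1.40 to 2.15). For a PPAR hexamer it was 1.30 (1.14 to 1.47).

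The reverse comparison did not show this. Among 15784 knockout ATF3 loci with a wild-type PPARγ peak, the odds of being missing in the wild-type list were 0.585 times as high (0.510 to 0.671) at the strongest 25% of PPARγ peaks, and for the full PPAR motif the odds ratio was 0.823 (0.650 to 1.04), an interval that held 1. The BALB/cJ ATF3 list in place of the knockout, which shares the wild-type list with the comparison above, gave odds ratios of 1.15 (1.03 to 1.28) for the strongest PPARγ peaks and 1.18 (0.975 to 1.43) for the full motif. The difference between these odds ratios and those of the knockout was not tested. Over all ATF3 loci, with or without a PPARγ peak, the full motif was in 4.44% of wild-type-only, 3.56% of shared and 2.99% of knockout-only windows, and in 2.34% of all 200 bp windows of the genome.

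**Figure D3:**
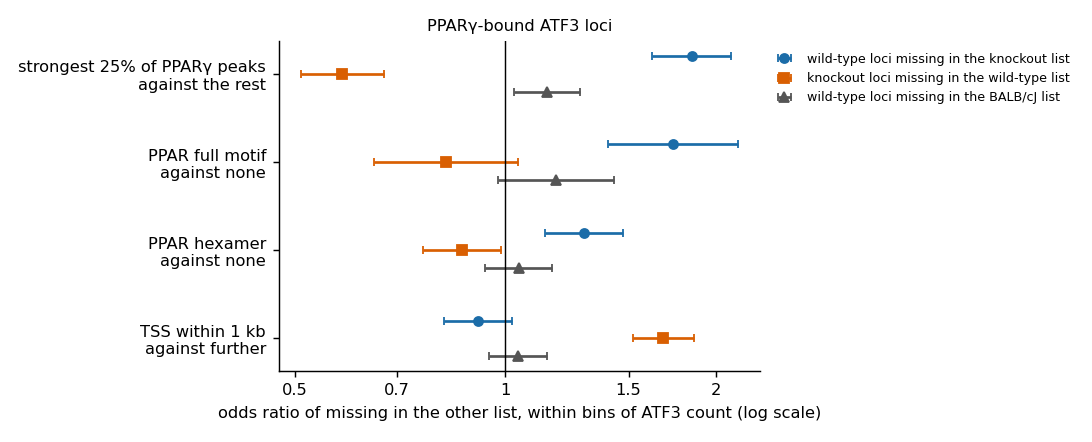
Odds ratio (x axis, log scale, with 95% intervals) of a PPARγ-bound ATF3 locus being missing in the other list, within bins of ATF3 count, for 4 features (y axis) and 3 comparisons of lists (symbols); the vertical line is 1. The strongest 25% of PPARγ peaks and the full PPAR motif lie to the right of 1 for wild-type loci missing in the knockout list (1.84 and 1.74) and to the left for knockout loci missing in the wild-type list (0.585 and 0.823).

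Shared loci kept much of their order. The Spearman correlation of the percentile ranks over 18103 shared loci was 0.887, a description over loci that share their genome and base composition. The median shift in rank, knockout minus wild type, was 5.51 points (SD 14.2 over loci), and at equal list lengths it was 0.451 points. A locus lower by at least 20 points in the knockout was found at 360 shared loci, 1.99% of them, and one higher by at least 20 points at 3362, 18.6%. At equal list lengths the counts were 1145 (6.58%) and 1578 (9.06%). With ranks taken among the shared loci alone, they were 1302 (7.19%) and 1338 (7.39%), so the excess of rises was nearly absent there.

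Shared loci that dropped in rank held PPARγ peaks more often than other shared loci of the same mean rank, with an odds ratio of 1.35 (1.08 to 1.68), and loci that climbed held them less often, 0.916 (0.843 to 0.996). At equal list lengths these were 1.36 (1.20 to 1.55) and 0.848 (0.760 to 0.946). With no bins the first value was 0.845 (0.681 to 1.05), on the other side of 1. The bound of the second value lay close to 1, and 2 of 10 alternatives gave intervals that held 1.

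**Figure D4:**
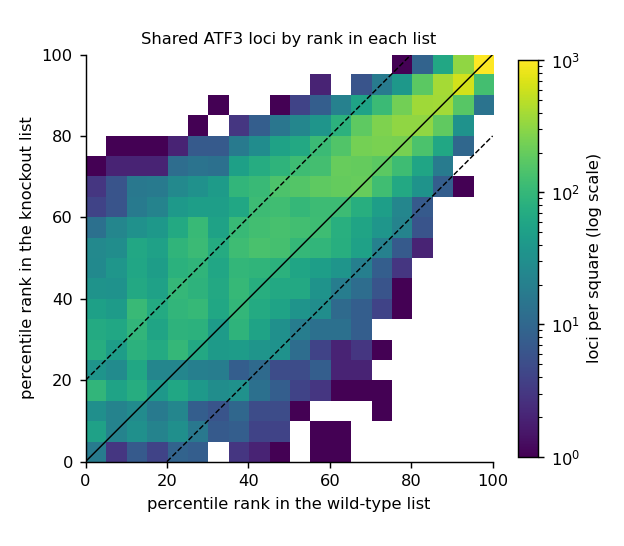
Percentile rank of the 18103 shared ATF3 loci in the wild-type list (x axis) and the knockout list (y axis), as the number of loci in each square of 5 by 5 points (colour, log scale); the solid line marks equal rank and the dashed lines a shift of 20 points. Loci lie along the diagonal at high ranks and spread above it at low wild-type ranks, with 3362 loci above the upper and 360 below the lower dashed line.

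Knockout-only loci lay closer to promoters than the other classes. An annotated transcription start site (TSS) was within 1 kb of 30.6% (29.7 to 31.5%) of knockout-only, 20.8% (20.2 to 21.4%) of shared and 24.3% (23.1 to 25.5%) of wild-type-only loci. Within count bins the odds ratio against shared loci was 1.39 (1.29 to 1.49) for knockout-only and 0.897 (0.827 to 0.973) for wild-type-only loci. Median GC content of the windows was 49.5% at knockout-only loci and 48.0% at the others. The PPARγ odds ratio of knockout-only loci, with promoter-near loci and others in separate bins, was 0.632 (0.590 to 0.676). The part of GC content in the class differences was not tested. By annotation, 47.4% of knockout-only, 52.3% of shared and 51.4% of wild-type-only loci were intronic, and 37.7%, 38.1% and 36.9% were intergenic. UTRs held 8.28% of knockout-only, 4.57% of shared and 5.91% of wild-type-only loci. The wild-type-only share was highest on chromosome 7 among the autosomes, at 16.6% of loci, close to the 15.1% over all chromosomes.

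Sequence words also varied between the classes, and not all in the same order. A TRE lay in 30.8% of shared, 19.9% of wild-type-only and 17.6% of knockout-only windows, against 3.10% of all genome windows of that length. Within count bins the odds ratios against shared loci were 0.802 (0.737 to 0.872) and 0.820 (0.756 to 0.890). The CRE was rarer, in 2.11% of shared, 1.55% of wild-type-only and 1.70% of knockout-only windows, with 0.105% of genome windows. Its odds ratio within bins was 0.585 (0.450 to 0.760) for wild-type-only loci. For knockout-only loci it was 0.990 (0.785 to 1.25), an interval that held 1. The CEBP and ATF composite was in 4.70% of shared, 3.53% of wild-type-only and 2.95% of knockout-only windows. The intervals of its odds ratios within bins, 1.04 (0.863 to 1.25) and 0.850 (0.706 to 1.02), held 1. The Sp1 word, common in promoters, was in 6.50% of knockout-only, 3.91% of shared and 4.86% of wild-type-only windows, against 0.541% of genome windows. The knockout-only odds ratio for Sp1 was 1.33 (1.15 to 1.53) and that of wild-type-only loci 0.808 (0.688 to 0.949).

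JunD peaks, of a dimer partner of ATF3, were fewer in the knockout at shared and wild-type-only ATF3 loci and more frequent at knockout-only loci. They lay at 72.9% of shared loci in wild-type cells and 53.7% in knockout cells, and at 43.4% and 21.7% of wild-type-only loci. At knockout-only loci the order was the other way round, with 19.1% in wild-type and 26.4% in knockout cells, although the JunD lists were of similar length, 19653 and 19355 peaks. Taking each locus by itself, 4921 shared loci had a JunD peak in wild type alone and 1454 in the knockout alone, and 1553 and 456 wild-type-only loci did so, a similar balance, while 1033 knockout-only loci had one in wild type alone and 1777 in the knockout alone. Jun peaks of wild-type cells lay at 59.8% of shared, 30.5% of wild-type-only and 12.1% of knockout-only ATF3 loci. The short Jun list of the knockout, 4290 peaks, covered 20.8%, 2.95% and 1.83% of these classes, so Jun peaks were fewer in the knockout in each class.

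Other ATF3 lists separated the classes as well. KLA-treated wild-type cells had an ATF3 peak at 86.4% of shared, 62.2% of wild-type-only and 41.7% of knockout-only loci, and BALB/cJ Veh cells at 69.9%, 38.4% and 20.3%. No peak in any of the 9 other lists was found at 1.22% of shared, 6.20% of wild-type-only and 16.9% of knockout-only loci. The 1731 knockout-only loci of that kind had a median count of 16.

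With lists cut to the same length, ATF3 kept more of its wild-type peaks in the knockout list than the Jun proteins did. Over the 4290 strongest peaks of each list, 82.9% (81.8 to 84.0%) of ATF3, 72.7% (71.4 to 74.0%) of JunD and 52.7% (51.2 to 54.1%) of Jun peaks were kept. The difference was 10.2 percentage points (8.48 to 11.97) between ATF3 and JunD and 30.3 points (28.4 to 32.1) between ATF3 and Jun. Over 19355 peaks, ATF3 kept 78.5% and JunD 53.9%. The cut lengths were those of the full Jun and JunD lists of the knockout, and they held only the stronger part of the ATF3 lists. Strong ATF3 peaks were missing less often than weak ones, so peak strength was not matched between monomers. Each monomer kept more of its peaks where a PPARγ peak lay. In the cut to 4290 peaks, ATF3 kept 84.5% with and 74.2% without a PPARγ peak, JunD 75.1% and 54.6%, and Jun 55.5% and 34.6%. These shares were not matched for peak strength. Within count bins of this cut, the odds ratio of a PPARγ peak, missing against kept, was 0.750 (0.600 to 0.938) for ATF3. It was 0.541 (0.441 to 0.663) for JunD and 0.555 (0.459 to 0.671) for Jun. Of 19355 wild-type ATF3 peaks, 70.2% were in a BALB/cJ list of the same length, beside 78.5% in the knockout list; both comparisons use the same wild-type list, and BALB/cJ reads had been mapped to a genome of that strain.

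**Figure D5:**
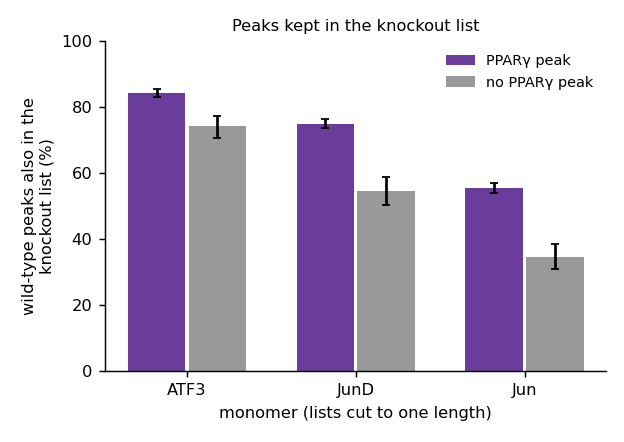
Share of the 4290 strongest wild-type peaks of each monomer (x axis) that overlapped the 4290 strongest knockout peaks of the same monomer (bars, percent, with 95% Wilson intervals), with and without a wild-type PPARγ peak. ATF3 kept the most and Jun the fewest, and peaks with a PPARγ peak were kept more often for each monomer. Peak strength was not matched between monomers, nor between peaks with and without a PPARγ peak.

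The strongest wild-type-only locus was the highest peak of the whole wild-type list. It lay at chr15:57906756-57906959, 5342 bp upstream of Tbc1d31, with an ATF3 count of 409. Peaks of PPARγ (count 111), PU.1 (372) and CEBPα (201) coincided with it, and so did JunD peaks of both genotypes (186 in wild type, 147 in the knockout) and an ATF3 peak in BALB/cJ (260). The nearest knockout ATF3 peak was 14261 bp away. The locus at chr1:184617913-184618133, whose nearest coding start site was that of the homeobox gene Hlx at 113575 bp and which lay 52 bp from a non-coding start site, had a count of 288, with PPARγ (110) and CEBPα (186) peaks and no PU.1 peak. The locus 2974 bp upstream of the mucin gene Muc3 had a count of 201, an ATF3 peak with KLA (302) and no peak of PPARγ, PU.1, CEBPα, Jun or JunD. The locus 45716 bp upstream of Cdkn2aipnl had a count of 184 with PPARγ (227) and PU.1 (738) peaks and no JunD peak in the knockout. With a PPARγ peak required, the locus 40596 bp upstream of Cdk6, a kinase of the G1 phase, took the place of Muc3, with a count of 176 and a knockout peak 424 bp away.

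At knockout-only loci the highest count was 260, at chr1:135594034-135594242 in an intron, 8433 bp upstream of the nearest coding start site of Nav1. That locus held PPARγ (141), PU.1 (154) and CEBPα (201) peaks of wild-type cells, JunD peaks of both genotypes (158 and 153) and ATF3 peaks in BALB/cJ (244) and with KLA (431). A locus with a count of 141 lay 9927 bp downstream of the start of Dcakd, with PPARγ (136) and CEBPα (160) peaks and a full PPAR motif. Next to Capzb, which encodes a subunit of the actin-capping protein, a locus with a count of 123 lay 211 bp upstream of the start site, with a JunD peak in the knockout (146) and none in wild type. Got1, an aspartate aminotransferase, had a locus with a count of 122 at 96 bp from its start site, a CEBPα peak (135), no PPARγ peak and a composite site. The nearest wild-type ATF3 peaks were close by, 591 bp from the Capzb locus and 594 bp from the Got1 locus, beside a median of 10859 bp for knockout-only loci. The locus 65669 bp upstream of Sertad2 had a count of 113, and JunD again had a peak in the knockout (160) and none in wild type. With a PPARγ peak required, a locus 28412 bp upstream of the chemokine gene Ccl2 followed, with a count of 106.

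Several of these strongest single-list loci carried AP-1 peaks of the genotype whose ATF3 list lacked them. Of the 100 strongest wild-type-only loci, all with a count of 95 or more, 47 had a Jun or JunD peak in the knockout, and 92 had one in wild type. Among the 100 strongest knockout-only loci, 59 had a Jun or JunD peak in wild type and 68 had one in the knockout. Over all loci of a class, a Jun or JunD peak was found in wild type and in the knockout at 53.6% and 23.2% of wild-type-only, 25.5% and 27.2% of knockout-only, and 80.2% and 57.6% of shared loci.

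The 5 largest rises in rank, which the size of the rise limits to loci of low wild-type rank, were at Crybg3, Hao1, Zfp619, Pgap2 and Clic5. At Crybg3 the ATF3 count was 28 in wild type and 47 in the knockout, a shift of 70.42 points, beside a PPARγ peak of 21. Near Hao1, an enzyme of glycolate oxidation, the counts were 31 and 53 (shift 69.71), and near the zinc finger gene Zfp619 they were 30 and 48 (shift 67.84). Pgap2, of GPI anchor synthesis, and the chloride intracellular channel gene Clic5 followed with shifts of 63.07 and 63.02. At equal list lengths these 5 shifts were 64.51, 64.84, 62.14, 58.50 and 56.24 points. PPARγ peaks lay at 2 of the 5 loci, which 5 loci cannot set apart from the 65.8% of all shared loci. Weak loci also held PPARγ peaks less often. Such a peak lay at 868 of 2161 wild-type loci with counts of 25 to 31, and at 2043 of 2299 with counts of 136 to 409.

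Falls in rank were led by a locus whose nearest coding start site was that of Trib1, a pseudokinase that promotes the turnover of CEBPα. Its count was 80 in wild type and 16 in the knockout, a shift of -58.66 points, and it held PPARγ (211) and CEBPα (79) peaks. The loci near Fhdc1, a formin gene, and Adamtsl4 had counts of 66 and 65 in wild type and 13 in the knockout, but the centres of their peaks were 148 and 281 bp apart, so those counts come from partly different windows. A second locus near Nav1 had counts of 67 and 14 (shift -56.06), and an intronic locus of the Src family kinase gene Lyn counts of 81 and 18 (shift -52.14). PPARγ peaks lay at 4 of these 5 loci, which 5 loci cannot set apart from the 65.8% of all shared loci, and Adamtsl4 held a full PPAR motif without a PPARγ peak. At equal list lengths the knockout peak of each of the 5 was among those left out, and the loci became wild-type-only. The 3 strongest shared loci, whose choice places them near the top of both lists, had counts of 407 and 282 near Glrp1, 380 and 270 near Tnfsf18, the gene of the GITR ligand, and 371 and 281 near Stk40.

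Lipid metabolism genes that PPARγ is known to regulate had ATF3 loci of all 3 classes. Around the 17 genes of this list, Pparg itself included, 67 loci were found within 10 kb of the gene. Of these, 17 were knockout-only, 33 shared and 17 wild-type-only, and Pparg held 4 of the wild-type-only loci. The wild-type-only share, 25.4% (16.5 to 36.9%), stood beside 15.3% of the 25022 loci at protein-coding genes in general, and the knockout-only share, also 25.4%, beside 31.3%. Of the 33 shared loci of this list, 1 fell and 6 rose by at least 20 points, beside 1.99% and 18.6% of all shared loci. At Cd36, a scavenger receptor for oxidised lipoproteins, the 3 strongest loci were shared, with wild-type counts of 211, 209 and 197, knockout counts of 112, 113 and 107, and shifts of -1.43, -1.21 and -1.24 points. The fatty acid binding protein gene Fabp5 had 4 wild-type-only loci, of counts 30, 30, 30 and 51, next to 4 shared ones, the strongest with counts of 144 and 107. The locus of Fabp5 with a count of 51 lay 99 bp from a start site. At Nr1h3, which encodes the oxysterol receptor LXRα, a locus with a PPARγ peak of 264 had an ATF3 count of 94 in wild type and no peak in the knockout, and 3 weaker loci were knockout-only, with counts of 16, 20 and 35. Lpl, the lipoprotein lipase gene, had 1 wild-type-only locus of count 48 with a PPARγ peak of 106, a shared locus with counts of 47 and 17 (shift -22.46), and 3 knockout-only loci of counts 14, 16 and 31. Plin2, which coats lipid droplets, kept its 3 strongest loci (131 and 76, 111 and 75, 75 and 42). Near Cpt1a, the enzyme that admits fatty acids to mitochondria, the locus printed above had counts of 32 and 23 (shift 24.21) under a PPARγ peak of 482. These loci of single genes, beyond the strongest, were picked after their values had been seen.

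The Pparg gene itself held 10 of these loci, 4 shared, 4 wild-type-only and 2 knockout-only. The strongest, in an intron at chr6:115424568-115424773, had counts of 193 in wild type and 118 in the knockout and a shift of 0.25 points, with a CEBPα peak (173) and no PPARγ peak. An intronic wild-type-only locus at chr6:115375322-115375760 had a count of 99, at percentile 79.8, and held PPARγ (45) and PU.1 (273) peaks. The other wild-type-only loci had counts of 37, 41 and 67. A knockout-only locus with a count of 17 lay 202 bp from a start site of Pparg, and the other, with a count of 16, in an intron. Within 1 Mb of the gene, 16 of 83 loci were wild-type-only, 19.3% (12.2 to 29.0%), and within 10 Mb 63 of 406, 15.5%.

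The other lists are read against the 31.3% knockout-only and 15.3% wild-type-only loci at protein-coding genes in general. Cholesterol efflux and LXR target genes had 56 loci around 14 genes, 14 knockout-only, 37 shared and 5 wild-type-only. The strongest was in the cholesterol exporter gene Abca1, with counts of 220 and 151 and a shift of 0.67, and a second Abca1 locus had counts of 154 and 69 and a shift of -6.38. Alternative activation genes had 40 loci, 11 knockout-only, 25 shared and 4 wild-type-only, led by the transglutaminase gene Tgm2 (205 and 138, shift 0.79) and by Klf4 (145 and 79, shift -1.72). Stress response genes of the ATF4 and ATF3 pathway had 56 loci, 13 knockout-only, 33 shared and 10 wild-type-only. There the Atf3 promoter carried counts of 327 and 261 at 55 bp from a start site (shift 0.10), the cystine transporter gene Slc7a11 256 and 160 (shift -0.02), and Ddit3, which encodes CHOP, 237 and 191 (shift 0.94). Of the 33 shared loci of this list, 0 fell and 5 rose by at least 20 points, beside 1.99% and 18.6% of all shared loci.

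Inflammatory cytokine and chemokine genes had 61 loci, 14 knockout-only, 38 shared and 9 wild-type-only, which is 14.8% wild-type-only beside 15.3% in general and 23.0% knockout-only beside 31.3%. Il1rn, the antagonist of the interleukin 1 receptor, led with counts of 210 and 139 (shift 0.61), followed by Ccl3 with 166 and 100 (shift 0.21). AP-1 genes had 46 loci, 11 knockout-only (23.9%), 28 shared and 7 wild-type-only (15.2%), with counts of 141 and 80 upstream of Fos (shift -0.82) and 140 and 90 at the Jun promoter (shift 2.10). Macrophage surface receptor genes had 107 loci, 21 knockout-only, 65 shared and 21 wild-type-only, 19.6% each, led by Clec4d (287 and 174, shift -0.12) and the fractalkine receptor gene Cx3cr1 (255 and 161, shift 0.03). Lysosome genes had 77 loci, 18 knockout-only, 49 shared and 10 wild-type-only, led by the cathepsin gene Ctsb (178 and 132, shift 2.37).

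Macrophage lineage transcription factor genes had the highest wild-type-only share of the 9 lists, 32 of 110 loci or 29.1% (21.4 to 38.2%), beside 15.3% at protein-coding genes in general, with 24 knockout-only (21.8%, beside 31.3%) and 54 shared loci. Of the 32, Zeb2 held 8, Mitf 6 and Runx1 6, and 14 had a PPARγ peak, beside 41.2% of all wild-type-only loci. The strongest of them, at Mitf, had a wild-type count of 105. The strongest loci of the list were shared: Runx1, with counts of 243 and 190 (shift 0.80), Tfec, with 217 and 126 (shift -0.46), and Irf8, with 188 and 100 (shift -1.67). Genes differ in length and so in the number of loci near them, and loci of one gene are not independent, so these counts describe the lists and no test was made of them.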

How the data were processed

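ChIP-seq peak lists of mouse TGEMs were used, 1 list per condition. Per the study's methods, the authors aligned reads to mm10 with Bowtie2, called peaks with HOMER against input and kept peaks with an irreproducible discovery rate (IDR) under 0.05 over replicates. The authors deposited, for each peak, a whole-number count, whose scaling and combination over replicates are not given in the sources used here, and the scaled IDR as a score. Of the 30 lists, 11 were read. Coordinates are as the files give them.

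ATF3 peaks of both lists were joined into 1 locus by an overlap of 1 bp or more, and the strongest peak of each list stood for a locus. Peaks of other lists were matched to the wild-type peak (wild-type-only against shared) or to the knockout peak (knockout-only against shared). Shares have Wilson 95% intervals and differences Newcombe intervals. Odds ratios are Mantel-Haenszel estimates over bins of 10% of the loci by count, or by mean percentile rank for rank shifts, with Robins-Breslow-Greenland intervals. An odds ratio was called where its interval left out 1. The overlap and odds ratio code was tested on simulated data: for the wild-type list, a simulated odds ratio of 0.5 was recovered as 0.501. TSSs, genes and annotations came from GENCODE mouse release 21 and sequence from GRCm38.p6, on the 21 main chromosomes, in windows of 200 bp about the peak centre. Named loci were the 5 with the highest count in each single-list class, with and without a PPARγ peak required, the 5 largest rises and falls in rank, the 3 strongest shared loci and the strongest of each of 9 gene lists. Of these, 1 locus and 1 marker list are not reported here. The members and lists were chosen with earlier results of these data known. Python 3.11.15, numpy 2.4.6 and pandas 2.3.3 were used. Alternatives were other overlap rules, equal list lengths, the strongest 50% of lists, a stricter IDR, loci away from TSSs, and odds ratios with no bins.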

Additional observations from a re-analysis of the deposited data

Results flagged for a closer look

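The knockout ATF3 list held 35 peaks on the unplaced scaffold JH584304, with counts from 12 to 135 (median 25), and the wild-type ATF3 list held 0. These peaks stand outside the chromosomes used for positions and sequences. The PPARγ list of wild-type cells had 54 peaks there, the JunD list 52 in the knockout and 0 in wild type, and the Jun list 40 in the knockout and 1 in wild type. A cause was not tested.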

How the results depend on the processing

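Over 90 recomputed values for 11 results, 75 kept their direction and their side of the threshold, or, for class sizes, stayed within 1.5 times. Knockout-only loci numbered 5750 at equal list lengths, 3900 in the strongest 50% of each list and 5763 at least 3 kb from a TSS. Shared loci numbered 10259 and wild-type-only loci 1319 in the strongest 50%, with 11816 and 3125 at least 3 kb from a TSS and 2643 wild-type-only loci at an IDR of at most 0.01; each of these settings removes peaks by construction. The CEBPα odds ratio of wild-type-only loci left 1 out of its interval with peak centres within 100 bp (0.911), a reciprocal overlap of 50% (0.890), the strongest 50% of each list (0.846) and no bins (0.440); the cause was not tested. The PPARγ odds ratio of loci that fell in rank was 0.845 with no bins, on the other side of 1, and that of loci that rose held 1 in its interval in the strongest 50% of each list (0.899) and at least 3 kb from a TSS (0.923). The ranks among shared loci only, the bins by TSS and the loci with no other peak within 500 bp were added after seeing the data. No paired analysis was possible because each condition has 1 list, and for the same reason no replicate could be left out. Divided by the median count ratio of shared loci, the counts of 2558 of 10215 knockout-only loci lay under the lowest wild-type count of 25, and multiplied by it, those of 0 of 5046 wild-type-only loci lay under the lowest knockout count of 11; the part of depth in the classes was not tested.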
